A study of Mus musculus with 6 samples.

Results

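Fam107a and Fam107b are the 2 genes of the Fam107 family with a row in the deposited table, out of 48709 gene identifiers, and were found by their GENCODE M21 symbols. They were chosen by their counts in the 3 knock-in and 3 wild-type samples, with their levels there already known, so the difference between these groups is given for them as a description, without a test. Messenger RNA of whole mouse cerebellum was measured by stranded RNA sequencing of polyadenylated transcripts in C57BL/6J animals aged 40 weeks. Of the samples 3 were wild type and 3 carried an SCA7 knock-in allele with 140 glutamines beside an allele with 5 glutamines in Atxn7. Both groups shared strain, tissue and age. Spinocerebellar ataxia type 7 is caused by expansion of this glutamine-coding repeat in ataxin-7, a subunit of the SAGA co-activator complex. The knock-in samples are labelled heterozygous. Each sample title carries a number of its own, but the labels do not say that it marks an animal. Errors and p-values therefore cover only the spread among these 6 libraries, part of which may be technical.

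Fam107a encodes a small protein that binds and bundles actin filaments. It is also known as DRR1, is switched on by glucocorticoids and stress in the brain, and is strongly expressed in astrocytes and radial glia. Fam107b encodes its less studied paralogue, a small protein known to be induced by heat shock in some cells. Both share a conserved domain that is specific to the family.

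Fam107a (ENSMUSG00000021750) lies on the minus strand of chromosome 14 from 8296274 to 8318023, and Fam107b (ENSMUSG00000026655) on the plus strand of chromosome 2 from 3570488 to 3782142 (mm10). Fam107a is on the same chromosome as Atxn7, the gene that carries the knock-in allele, with 5.64 Mb between them. No annotated gene overlaps Fam107a. The body of Fam107b holds 2 processed pseudogenes and 1 antisense gene, none of which shares an exon base with it. The promoter windows that RefSeq (GRCm38.p6) gives for the members are shown because they were searched for elements that bind the factors of glucocorticoid and heat shock induction. They span 250 bases before to 50 bases after an annotated start, and capitals mark every match to a motif searched on both strands. Fam107a has an upstream start (chr14:8317558-8317857, minus strand) and a downstream one (chr14:8309730-8310029, minus strand), with a further start 2 bases from the latter that is not shown, and Fam107b has 1 start in this table (chr2:3713208-3713507, plus strand).
Fam107a upstream: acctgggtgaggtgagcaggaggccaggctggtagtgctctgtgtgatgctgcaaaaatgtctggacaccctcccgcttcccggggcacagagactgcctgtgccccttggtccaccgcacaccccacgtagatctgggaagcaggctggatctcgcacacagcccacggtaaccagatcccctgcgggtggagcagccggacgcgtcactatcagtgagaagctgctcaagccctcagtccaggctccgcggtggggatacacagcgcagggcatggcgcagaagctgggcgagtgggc
Fam107a downstream: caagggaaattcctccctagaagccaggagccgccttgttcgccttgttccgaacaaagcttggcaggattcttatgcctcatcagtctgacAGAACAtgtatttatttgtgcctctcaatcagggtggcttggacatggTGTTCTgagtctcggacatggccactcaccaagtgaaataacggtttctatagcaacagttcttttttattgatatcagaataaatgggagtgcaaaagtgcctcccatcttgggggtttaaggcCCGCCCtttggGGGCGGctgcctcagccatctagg
Fam107b: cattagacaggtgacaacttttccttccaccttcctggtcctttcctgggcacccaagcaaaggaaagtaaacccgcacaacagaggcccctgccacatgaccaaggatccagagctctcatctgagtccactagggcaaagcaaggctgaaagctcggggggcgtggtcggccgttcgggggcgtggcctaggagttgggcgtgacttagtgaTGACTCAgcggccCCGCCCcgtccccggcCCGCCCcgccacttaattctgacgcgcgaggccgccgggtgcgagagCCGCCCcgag

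The motifs searched were the half-site of the glucocorticoid receptor AGAACA (read from the opposite strand as TGTTCT), the full element of 2 facing half-sites spaced by 3 bases, the heat shock element core GAANNTTC, the AP-1 site (TGA and TCA around 1 base of any kind) and the GC box GGGCGG (read from the opposite strand as CCGCCC). The downstream window of Fam107a held 2 half-sites, AGAACA with its first base 158 bases before the start and TGTTCT with its first base 110 bases before it. At least 1 half-site was found in 19.0% of all 32851 windows of this length, and 2 or more in 2.54%. The full element was in none of the windows shown and in 3 of all 32851 windows, and by construction its half-sites count among the others. The Fam107b window held TGACTCA, a match to the AP-1 letters, 36 bases before the start (7.81% of all windows hold these letters), and 3 GC boxes on the other strand. The downstream Fam107a window held 2 GC boxes after the start, and the upstream window held no match to any of these letters. A GC box was in 35.7% of all windows. The heat shock core, found in 7.86% of all windows, was in none of the windows shown. The Fam107b window had 22 CpG pairs, the upstream Fam107a window 15 and the downstream one 7, against a median of 7 over all windows. These matches describe the letters only, and counts per gene do not show which start was used.

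The libraries held between 34630391 and 49127673 counts, of which Fam107a took up to 0.119% and Fam107b up to 0.0285%. CPM below are counts scaled to a common library size with TMM factors from edgeR, and FPKM are the same per kilobase of exon. Markers that define the tissue were present, with the Purkinje cell genes Car8 and Calb1 at 2870 and 1523 CPM in wild type. For Atxn7 itself the knock-in libraries gave 22.4, 24.0 and 22.1 CPM, against wild-type values of 25.9, 26.2 and 22.6 CPM. Counts per gene do not separate its alleles, and the genotype labels are therefore not checked by them. Of 16699 genes tested with edgeR's quasi-likelihood test, 318 passed an adjusted p of 0.05, or 1.9%. Of these 213 were lower in knock-in (1.28% of the genes tested) and 105 higher (0.629%), while library size without TMM factors gave 190 lower and 323 higher. With the replicate number as a block the count was 2034, or 12.2%. The number of calls depended on single libraries. Leaving out wild-type replicate 1, 2 or 3 gave 47, 89 or 78 calls, and leaving out knock-in replicate 1, 2 or 3 gave 39, 858 or 73.

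Fam107a was abundant in every library and lower in knock-in. Wild-type replicates 1 to 3 stood at 1199, 1004 and 1008 CPM, and knock-in replicates 1 to 3 at 669, 812 and 702 CPM. Wild-type replicate 1 was the highest and knock-in replicate 1 the lowest, and the groups did not overlap. The means were 1071 ± 111 and 728 ± 75.0 CPM (SD, n = 3 each), so that knock-in cerebella held 68.0% of the wild-type level. This corresponds to a log2 fold change of -0.56 ± 0.10 (SE, n = 3 each). The lowest wild-type value exceeded the highest knock-in value 1.24-fold.

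Fam107b was less abundant and further apart between the groups. In the same order its values were 287, 283 and 253 CPM for wild type, then 108, 141 and 122 CPM for knock-in. All 3 knock-in samples lay below all wild-type samples, by at least 1.80-fold. The means were 274 ± 18.6 and 123 ± 16.7 CPM (SD, n = 3 each), which is 45.0% of the wild-type level in knock-in. As a log2 fold change this was -1.15 ± 0.10 (SE, n = 3 each). Groups without overlap were found in 23.8% of all genes tested and, with knock-in lower, in 11.5%. In both genes knock-in replicate 2 was the highest and replicate 1 the lowest of the knock-in samples, as the plot of CPM by sample shows. Counts of bulk tissue cannot tell fewer cells of a type from less RNA per cell.

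**Figure D1:**
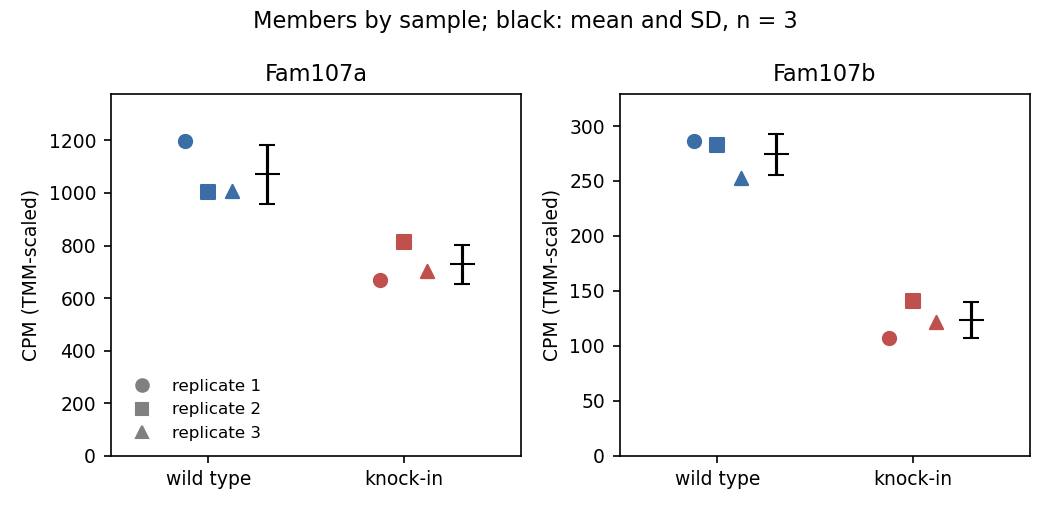
CPM of Fam107a and Fam107b (vertical axes, each from 0) in 3 wild-type and 3 knock-in samples, with marker shapes for the replicate number and black bars for the mean and SD. In both genes every knock-in sample lies below every wild-type sample, and knock-in replicate 2 is the highest of its group.

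Among genes with a mean of at least 100 CPM the log2 fold change of Fam107b was at the lower edge of the distribution. Of 2502 genes with a mean of at least 100 CPM, 1 had a lower log2 fold change, the insulin-like growth factor binding protein gene Igfbp5 at -1.24 ± 0.12, which was picked out after its value was seen. For Fam107a, 33 of these genes had a lower log2 fold change. Over all 16699 genes the corresponding numbers were 62 for Fam107b and 473 for Fam107a. All tested genes had a median log2 fold change of 0.01, and the called lower genes had one of -0.55, which is close to the value of Fam107a. These positions describe values that were known when the genes were chosen.

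**Figure D2:**
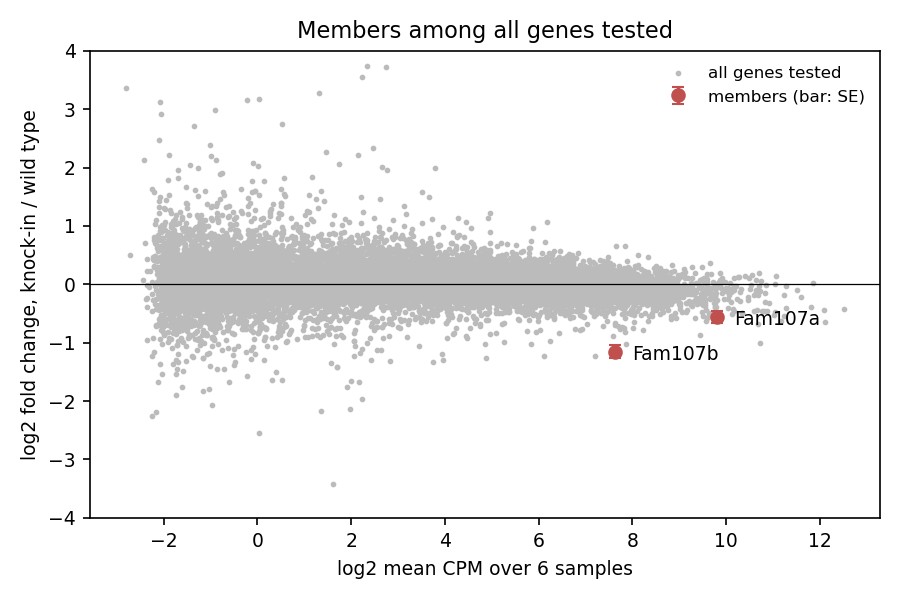
Log2 fold change of knock-in against wild type (vertical axis) against log2 mean CPM over 6 samples (horizontal axis) for all 16699 genes tested, with 5 genes beyond the vertical limits not shown. Fam107b at -1.15 lies at the lower edge among genes of its abundance, and Fam107a at -0.56 lies nearer to the other abundant genes (bars, SE).

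Per kilobase of exon, Fam107a exceeded Fam107b in all 6 libraries. Fam107a had 277 ± 28.7 FPKM in wild type and 188 ± 19.4 FPKM in knock-in, and ranked between 69th and 173rd of the genes by FPKM over the 6 libraries. Fam107b had 63.3 ± 4.29 and 28.5 ± 3.85 FPKM (SD, n = 3 each). Its rank was between 628th and 779th in wild type and between 1591st and 2082nd in knock-in. The mean log2 ratio of the 2 levels was 2.42 ± 0.34 (SD, n = 6 libraries), or 5.37-fold. It is given without a test, since these levels were known when the genes were chosen. With the mean length of the coding transcripts in place of the exon length the log2 ratio was 1.40.

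The ratio of Fam107a to Fam107b within a library does not depend on scaling between libraries. On the FPKM scale the wild-type libraries gave 4.68, 3.97 and 4.46, and the knock-in libraries gave 6.96, 6.45 and 6.44. Every knock-in library had a higher ratio than every wild-type library. On the log2 scale of the counts the ratio was 1.96 ± 0.12 in wild type and 2.56 ± 0.06 in knock-in (SD, n = 3 each), a difference of 0.60 ± 0.08 (SE). With each library left out in turn the difference lay between 0.53 and 0.65, so that Fam107b had the larger fold difference in all 6 settings.

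**Figure D3:**
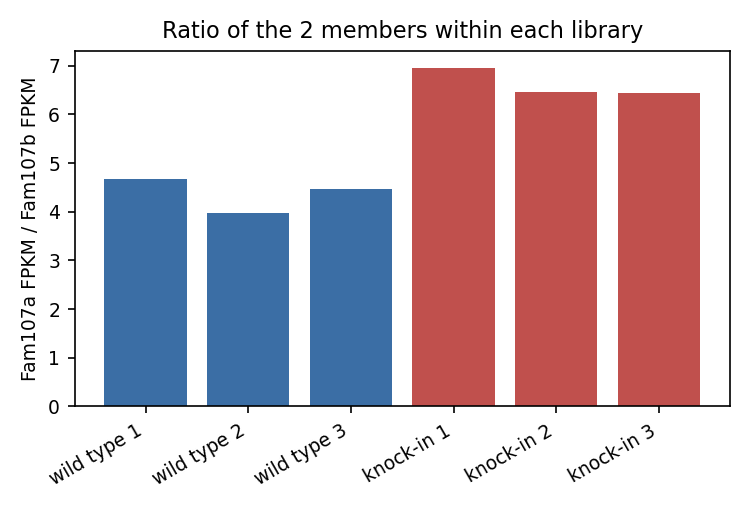
Ratio of Fam107a FPKM to Fam107b FPKM (vertical axis, from 0) in each of the 6 libraries. The 3 wild-type libraries lie between 3.97 and 4.68 and the 3 knock-in libraries between 6.44 and 6.96.

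Some markers of astrocytes, in which Fam107a is known to be expressed, were lower in knock-in. Of 20 astrocyte markers 6 were called lower and none higher (30% called, beside 1.9% of all genes). With the replicate block, which called 12.2% of all genes, 11 were called lower. Called or not, 18 log2 fold changes were negative and 2 positive. The median log2 fold change was -0.29 against 0.01 over all genes. Aldoc, which encodes the glycolytic enzyme aldolase C and is also made by Purkinje cells, fell from 2776 ± 147 to 1798 ± 123 CPM (log2 fold change -0.63 ± 0.07, edgeR adjusted p 0.00392). Errors of CPM are SD over 3 samples, those of log2 fold changes are SE, and wild type is named first. Gja1, the gap junction protein connexin 43, fell from 303 ± 5.92 to 216 ± 6.82 CPM, and Aqp4, the water channel of astrocyte endfeet, from 535 ± 28.3 to 369 ± 29.8 CPM. Bergmann glia are specialised astrocytes around Purkinje cell dendrites. All 10 of their markers had a negative log2 fold change, with a median of -0.28. Of these 1 was called lower (10% called, and 5 lower with the block). This gene was A2m, which encodes a protease inhibitor, and its 126 ± 9.34 CPM dropped to 85.9 ± 9.76 CPM (-0.56 ± 0.10 as log2 fold change, edgeR adjusted p 0.0232). The astrocyte markers summed to between 11954 and 13003 CPM in wild type and between 9119.8 and 10239.7 CPM in knock-in, and the Bergmann glia markers to between 3936 and 4185 and between 3196 and 3642 CPM. Their part in the level of Fam107a was not tested.

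The mean log2 level of these markers, and of 2 lists of neuron markers, in the same library gives another reference for the members. The log2 CPM of Fam107a lay above the mean of the Bergmann glia list by 2.93, 2.76 and 2.78 in wild type, and by 2.58, 2.67 and 2.51 in knock-in. Above the astrocyte list it lay 1.77 ± 0.21 in wild type and 1.49 ± 0.05 in knock-in. Against the Purkinje cell list the knock-in distances of 1.62, 1.66 and 1.52 overlapped with the wild-type ones of 1.86, 1.58 and 1.69. The distances of Fam107b differed more between the groups. Among 4 lists the granule neuron list gave the largest difference for both members, from 1.83 ± 0.30 to 1.42 ± 0.08 for Fam107a, without overlap, and from -0.13 ± 0.21 to -1.15 ± 0.13 for Fam107b. Fam107b stood 0.86 ± 0.08 above the Bergmann glia list in wild type and 0.02 ± 0.11 above it in knock-in. Relative to the Purkinje cell list it was at -0.25 ± 0.05 in wild type and -0.96 ± 0.08 in knock-in, and relative to the astrocyte list at -0.20 ± 0.15 and -1.07 ± 0.11 (log2, SD, n = 3 each).

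Markers of neurons and of other cell types moved as well. Of all genes 1.9% were called without the block and 12.2% with it. Without the block edgeR called 50% of the Purkinje cell list and 20% of the granule neuron list. The shares were 20% of the oligodendrocyte list and 8.33% of the endothelial and pericyte list. Of 20 Purkinje cell markers 10 were called lower and none higher (16 lower with the block), with a median of -0.47. Called or not, 18 were negative and 2 positive. The called genes were led by Cep76, a centrosomal protein gene, Rgs8, a regulator of G protein signalling, and Gng13, a G protein gamma subunit. Their log2 fold changes were -0.88 ± 0.09, -1.01 ± 0.10 and -0.81 ± 0.10. That of Fam107b was larger in size than that of any marker in this list. The list summed to between 15652 and 17529.8 CPM in wild type and between 10334 and 12377 CPM in knock-in, and its part in the level of the members was not tested. Of 15 granule neuron markers 3 were called lower (5 with the block). In this list 11 log2 fold changes were negative and 4 positive, with a median of -0.12. Cbln3, a cerebellin, fell by 0.46 on the log2 scale and Chn2, a GTPase-activating protein for Rac, by 0.52. Grm4, a metabotropic glutamate receptor, fell by 0.74. In the oligodendrocyte list 3 of 15 were called lower (7 lower and 1 higher with the block), among them the myelin genes Tspan2 and Ugt8a. The median was -0.08. Among 12 endothelial and pericyte markers Slco1c1, a thyroid hormone transporter, fell from 60.9 to 45.2 CPM (2 lower and 1 higher with the block). No microglia marker of 12 was called by edgeR (5 at an unadjusted p under 0.05, 1 lower and 1 higher by DESeq2, 0 by limma-voom, 1 lower and 4 higher with the block), and the median log2 fold change was 0.18.

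Among 4 lists linked to what these proteins do or to what induces them, edgeR called 1 gene, in the glucocorticoid list (4.76% of that list, beside 1.9% of all genes). Of 46 regulators of the actin cytoskeleton none was called by edgeR (5 at an unadjusted p under 0.05, 0 by DESeq2 and by limma-voom, 5 lower and 1 higher with the block, which called 12.2% of all genes). Their median was -0.03, and 0.04 when only library size was used for scaling. Cfl1, the actin-severing protein cofilin, had 616 ± 14.2 and 603 ± 35.5 CPM. Of 21 genes that glucocorticoids induce, Cebpd, a transcription factor, rose from 0.71 ± 0.19 to 1.72 ± 0.20 CPM (log2 fold change 1.29 ± 0.26, edgeR adjusted p 0.0398). Without wild-type replicate 1 Cebpd was not called, at a log2 fold change of 1.06 ± 0.25. With the block 4 of the 21 genes were higher. The list's median was 0.14, and -0.02 without wild-type replicate 1. Of 3 tested genes for corticosteroid receptors and the enzymes that activate or inactivate the hormone none was called by edgeR (1 at an unadjusted p under 0.05, 0 by DESeq2, limma-voom and with the block), and Hsd11b1, which regenerates active glucocorticoid, had 115 ± 9.53 and 96.7 ± 7.78 CPM. Of 17 heat shock genes none was called by edgeR (2 at an unadjusted p under 0.05, 0 by DESeq2 and limma-voom, 1 higher with the block). Their median was 0.02, and -0.05 without wild-type replicate 1. Hsp90ab1, a cytosolic chaperone, had 1504 ± 73.6 and 1423 ± 4.69 CPM.

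**Figure D4:**
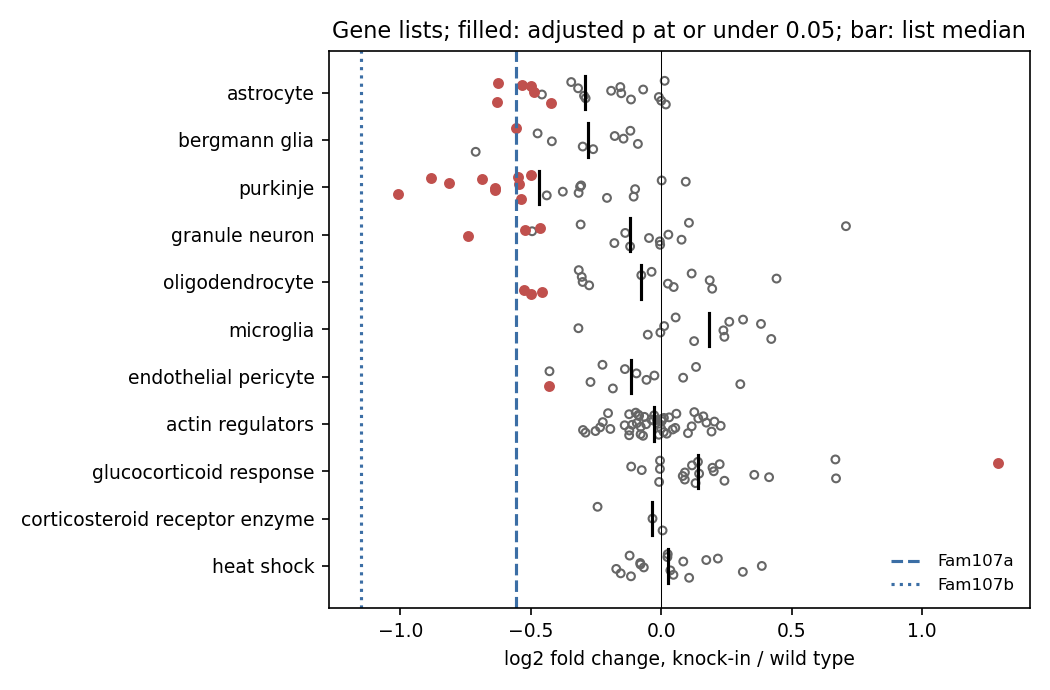
Log2 fold change of knock-in against wild type (horizontal axis) for every tested gene of 11 lists (rows), with filled points for an edgeR adjusted p at or under 0.05, black bars for list medians and vertical lines for Fam107a and Fam107b. Called genes shown lie in the astrocyte, Bergmann glia, Purkinje cell, granule neuron, oligodendrocyte and endothelial lists and, for 1 gene, in the glucocorticoid list. No point shown reaches the line of Fam107b at -1.15. The brainstem list, with 1 called gene, and the choroid plexus list, with values down to -1.76, are not plotted.

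These list counts depended on single libraries. Of 209 tested genes of the 13 lists 26 were called. Leaving out wild-type replicate 1, 2 or 3 left 7, 12 or 8 calls, and leaving out knock-in replicate 1, 2 or 3 left 4, 44 or 7. Markers of neighbouring tissue also varied between libraries. The 6 tested brainstem markers summed to 16.0, 22.7 and 16.4 CPM in the wild-type libraries, and to 75.9, 15.4 and 50.7 CPM in the knock-in ones. The median log2 fold change of the list was 3.27, and 1 of the 6, Slc18a2, the vesicular monoamine transporter, was called. This was 16.7% of the list, beside 1.9% of all genes. With the block, which called 12.2% of all genes, 4 of the 6 were called. Th, an enzyme of catecholamine synthesis picked out after its values were seen, made up most of the sum in the wild-type libraries, at 13.4, 15.4 and 14.6 CPM, and had 16.0, 7.36 and 14.8 CPM in knock-in. As a mean log2 CPM the list stood at -0.48, 0.95 and -1.41 in wild type and at 3.30, 0.67 and 2.48 in knock-in, and only replicate 2 of the knock-in libraries overlapped with wild type. With this mean as a covariate the log2 fold changes were -0.39 ± 0.15 for Fam107a and -1.03 ± 0.16 for Fam107b. Then 0 list genes and 3 of all 16699 genes were called, beside 318 of all genes without it. List medians were -0.42 for Purkinje cell markers (-0.47 without it) and -0.17 for astrocyte markers (-0.29 without it). The covariate itself differed largely with genotype, so this fit cannot tell them apart and its 0 calls decide nothing about the lists. The 12 choroid plexus markers summed to 951, 895 and 2776 CPM for wild type, overlapping with 617, 232 and 1868 CPM for knock-in, at a median log2 fold change of -0.97. None of these 12 was called by edgeR (2 at an unadjusted p under 0.05, 0 by DESeq2 and limma-voom, 8 lower with the block), with Ttr, the transthyretin of this epithelium, at 900 ± 761 and 495 ± 659 CPM. The part of this tissue in the members' levels was not tested.

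No gene next to either member was called by edgeR. Within 1 Mb of Fam107a 9 other genes were tested, and none was called (1 at an unadjusted p under 0.05, 0 by DESeq2, limma-voom and with the block), with a median log2 fold change of -0.03. The nearest on the side of lower coordinates was Kctd6, a potassium channel tetramerisation domain gene, 72.7 kb away, at 30.7 ± 1.73 and 29.4 ± 0.53 CPM. On the other side it was 4930452B06Rik, 113 kb away, at 3.55 ± 0.29 and 2.29 ± 0.58 CPM. Its log2 fold change of -0.63 ± 0.21 was close to that of Fam107a and had an edgeR adjusted p of 0.156. Within 1 Mb of Fam107b 12 genes were tested and none was called (1 at an unadjusted p under 0.05, 0 by DESeq2, limma-voom and with the block), with a median of -0.04 and a lowest value of -0.19. The nearest were Cdnf, a neurotrophic factor gene 44.1 kb away, at 2.31 ± 0.34 and 2.11 ± 0.39 CPM, and Frmd4a, a scaffold protein gene 236 kb away, at 55.5 ± 5.18 and 49.2 ± 6.04 CPM.

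**Figure D5:**
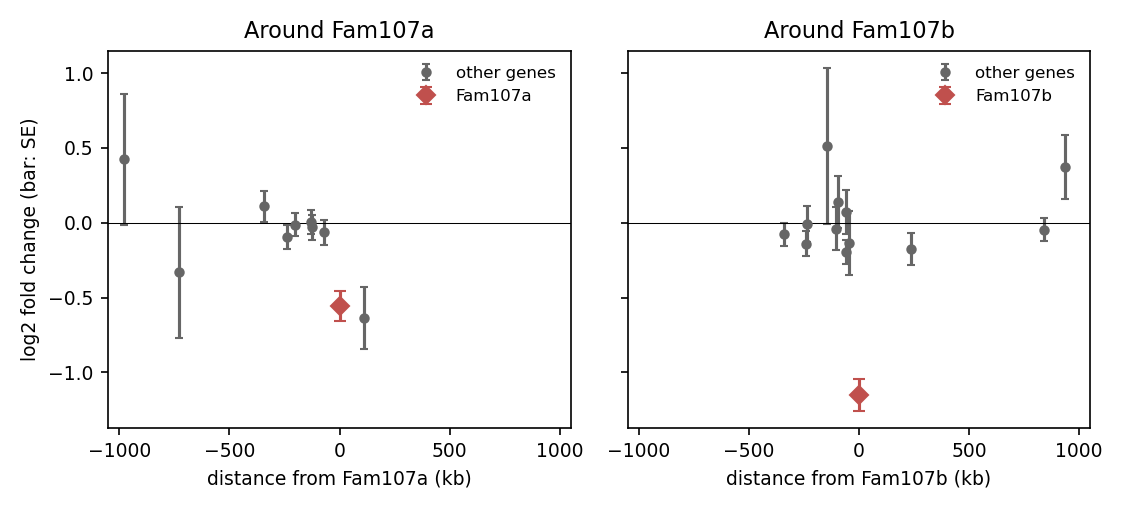
Log2 fold change with its SE (vertical axis) of the genes tested within 1 Mb against their distance from Fam107a and from Fam107b in kb (horizontal axes). The neighbours of Fam107b lie at or above -0.19, while the neighbour of Fam107a at 113 kb lies at -0.63.

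Over the 6 samples the log2 CPM of the members had a Pearson r of 0.96 with each other, and 0.79 after the group means were taken out. Points share the library, its depth and, in the first value, the genotype. By the first measure Fam107b ranked 92nd in likeness to Fam107a among 10142 coding genes with a mean of at least 10 CPM, and by the second 589th. The 5 genes most like Fam107a over the 6 samples were Ttc37, Gpbp1, Tom1l1, Ahcyl1 and Syt9, with r between 0.990 and 0.995, and their log2 fold changes lay between -0.30 and -0.15. The 5 most like Fam107b were Cep76, Suox, Opn3, Garnl3 and Fbxw7, with r between 0.996 and 0.999. Of these Opn3, a non-visual opsin, had a log2 fold change of -1.20 ± 0.12, beside -1.15 for Fam107b, and Garnl3 one of -0.74 ± 0.10. After the group means were taken out, Rdh11, Tmpo, Vps36, Dek and Ints6 were most like Fam107a, with log2 fold changes between -0.49 and 0.01. Cyth3, Garnl3, Fam220a, Pdp2 and Strip2 were most like Fam107b. By either measure the genes named are extremes of 10142 on 6 samples, where a high r can arise without any relation. Garnl3 was the gene that both measures placed among the nearest 5 to Fam107b.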

How the data were processed

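The authors deposited a table of whole-number counts for each Ensembl gene and sample, with no normalization applied as far as the values show. Per the submitters' processing notes, the tools were TopHat2 2.0.14, Bowtie2 2.1.0, HTSeq 0.6.1 and bcl2fastq 2.17.1.14, and the build was mm10. Which annotation release was counted, and whether by strand, is not given in the sources used here. GENCODE M21, also on mm10, supplied symbols, positions and exon lengths for 48349 of the 48709 identifiers.

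The groups were compared in R 4.3.3 with edgeR 4.0.16: filterByExpr (minimum count 10, minimum total 15), TMM factors, a quasi-likelihood F test with genotype as its one term and Benjamini-Hochberg adjustment over all 16699 genes tested. The SE of a log2 fold change is its size divided by the square root of F. Log2 CPM used a prior count of 2. The procedure was also run on simulated counts, drawn independently for each library. These held no pairing of samples and no neighbouring tissue, so that run cannot show how the procedure behaves with either. The members, the 13 gene lists, the tests and the rule for named genes were chosen with earlier results of these data known. The rule took up to 3 called genes of each list with the smallest adjusted p, otherwise its most abundant gene, the nearest coding neighbours and any called within 1 Mb, and the 5 genes most like each member. Some genes that the rule named are not reported here.

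Replicate numbers come from the sample titles, which do not say what equal numbers share. Deviations from the group means over 10278 genes correlated at 0.28, 0.43 and 0.55 between samples of equal number. The correlations between all others were negative. Deviations within a group cancel out, so these negative values largely follow from the positive ones and add little. On the positive values alone, which come from the same data, the numbers were taken to pair the samples. The blocked counts are therefore given beside the unblocked ones. Pairs of libraries within a group differed by more than sampling noise (chi-square per degree of freedom between 13.1 and 28.1). Alternatives covered scaling, filter, DESeq2 1.42.0, limma-voom 3.58.1, a covariate, GC and length offsets and each library left out. A sign-flip test planned for the ratio of the members' levels is not reported, since those levels were known when the members were chosen. No sequence of the proteins is shown.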

Additional observations from a re-analysis of the deposited data

How the results depend on the processing

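Both members kept a negative log2 fold change under all 17 alternatives run for each, between -0.65 and -0.39 for Fam107a and between -1.26 and -1.03 for Fam107b. The value of Fam107a moved by more than the spread between replicates with the brainstem covariate, to -0.39, and that of Fam107b did not under any of them. Without single libraries the ranges were -0.65 to -0.48 and -1.26 to -1.05. The replicate block gave -0.56 and -1.16, and a difference in log2 ratio between the members of 0.60. The log2 ratio of their levels was 2.35 to 2.51 without single libraries.

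The number of genes called moved more. It was 318 as reported, 513 with library size alone, 1303 without a filter, 908 with DESeq2, 2034 with the replicate block, 3 with the brainstem covariate, 723 with GC and length offsets and 39 to 858 without single libraries. Of the list genes 26 were called as reported, 45 with DESeq2, 76 with the block, 0 with the covariate, 47 with GC and length offsets and 4 to 44 without single libraries. The blocked fits of the lists and neighbours were added after the data were seen. The cause of these changes was not tested. The replicate block changed the call of no named list gene. Without single libraries 0 neighbours within 1 Mb of Fam107a or of Fam107b were called. With all libraries and a window of 5 Mb around Fam107a, 3 of 27 genes were called, all higher in knock-in (1 by DESeq2, 4 with the block). Over all genes 1.9% were called, and 12.2% with the block. Of the 3, Gm3383 (means of 0.02 and 0.27 CPM) and Gm10406 (0.05 and 0.43 CPM) had very low levels. Synpr, the third, had 123 ± 7.45 and 161 ± 3.36 CPM. Within 5 Mb of Fam107b 0 of 31 genes were called (2 by DESeq2, 4 with the block). For the named list genes and Atxn7 298 values under alternatives stayed on their side of the threshold, 76 lost the call and none reversed. Depth did not limit the members, which had at least 3973 counts in every library.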
